A study of Homo sapiens with 12 samples.

Results

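Transcripts of 9 genes of BMP and TGF-beta signalling were followed in HCT116 cells: the ligand BMP4, the receptor BMPR2, the signal-transducing SMAD9, the inhibitory SMADs SMAD6 and SMAD7, and the ID genes ID1, ID2, ID3 and ID4. They were the rows with these gene names among the 58233 genes of the deposited count table, and each name matched 1 row. HCT116 is a human colorectal carcinoma line. The parental cells were HCT116 Tet-OsTIR1 cells, which carry the rice F-box protein TIR1 at the AAVS1 locus under a doxycycline-inducible promoter. The SDS22-degron cells derive from them, and both alleles of PPP1R7 encode SDS22, a regulator of protein phosphatase PP1, fused to a mini auxin-inducible degron (mAID) and mClover. They were expanded from isolated colonies after genome editing. Each line was either untreated or exposed for 48 h to doxycycline at 2 µg/ml together with 500 µM of the auxin IAA (Dox/IAA), so that parental cells with Dox/IAA also made OsTIR1 but had no tagged SDS22. There were 3 libraries in each of the 4 groups and 12 in all.

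BMPs and TGF-betas are secreted ligands that bring type II and type I receptor kinases together, and the receptors then phosphorylate the receptor-regulated SMADs. SMAD1, SMAD5 and SMAD9 serve the BMP branch and SMAD2 and SMAD3 the TGF-beta and activin branch, and both sets enter the nucleus with SMAD4. The ID genes, SMAD6 and SMAD7 are classical transcriptional targets: ID proteins bind E proteins and keep them from DNA, while SMAD6 and SMAD7 close a feedback loop at the receptors and the SMADs. PP1 is known to act in this pathway, where SMAD7 and the PP1 regulator GADD34 bring it to the type I TGF-beta receptor. HCT116 cells are known to carry frameshift mutations in TGFBR2, the type II TGF-beta receptor, and to respond to BMPs.

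The upstream sequences of the 4 genes whose Dox/IAA effect differed between the lines (ID1, ID3, SMAD6 and BMPR2, values below) are shown because 3 letter patterns known from SMAD binding were searched in them: GTCTAGAC, CAGAC and GGCGCC, on both strands and without overlap between the patterns. Capitals mark each match, and a CAGAC on the opposite strand reads GTCTG. The sequences are the 250 bases before the RefSeq start on GRCh38.p14, read 5′ to 3′ on the strand of the gene. For ID3, whose deposited gene span reaches beyond its window, only the match with 12 bases on either side is shown. The windows were chr20:31605039-31605288 (plus strand) for ID1, chr15:66701986-66702235 (plus strand) for SMAD6 and chr2:202376077-202376326 (plus strand) for BMPR2, and the ID3 stretch was chr1:23559632-23559660 (minus strand).
ID1: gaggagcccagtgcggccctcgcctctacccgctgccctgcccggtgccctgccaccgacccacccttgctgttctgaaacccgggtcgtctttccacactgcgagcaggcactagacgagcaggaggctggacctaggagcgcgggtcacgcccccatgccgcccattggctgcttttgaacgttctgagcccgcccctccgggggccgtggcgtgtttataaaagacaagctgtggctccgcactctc
SMAD6: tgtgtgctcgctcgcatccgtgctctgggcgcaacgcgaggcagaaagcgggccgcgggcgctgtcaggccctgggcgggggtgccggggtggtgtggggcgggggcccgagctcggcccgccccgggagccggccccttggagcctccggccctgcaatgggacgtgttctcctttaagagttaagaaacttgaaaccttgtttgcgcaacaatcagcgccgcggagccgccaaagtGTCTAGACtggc
BMPR2: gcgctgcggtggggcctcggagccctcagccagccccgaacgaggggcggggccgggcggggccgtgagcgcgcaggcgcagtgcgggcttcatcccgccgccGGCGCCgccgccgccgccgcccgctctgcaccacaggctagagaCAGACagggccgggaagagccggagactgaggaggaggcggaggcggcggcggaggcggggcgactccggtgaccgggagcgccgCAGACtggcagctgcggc
ID3: ggtcttcggcgtCAGACcagccggaggaa

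The palindrome GTCTAGAC was found in 0.182% of the 35116 upstream windows of all genes, and among the 13 windows of the 9 genes it was found in that of SMAD6, where its first base lay at -12. CAGAC was found in 38.0% of all windows and in 7 of the 13, which belonged to BMP4, BMPR2, ID3, ID4 and SMAD7. In BMPR2 it started at -103 and -18 and in ID3 at -147. GGCGCC was found in 16.4% of all windows and in 2 of the 13, those of BMP4 and BMPR2, with the BMPR2 match at -147. The windows of ID1, ID2 and SMAD9 held none of the 3 patterns. These matches describe letters in a window and are not evidence of binding.

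The libraries held 12133915 to 14657508 counted reads, with TMM factors from 0.971 to 1.03, and no 2 columns were identical. A low-count filter left 16657 genes, of which 8 were among the 9 described here. ID4 did not pass it. The libraries of 1 group differed by more than counting noise, the chi-square of pairs over its degrees of freedom being 2.16 to 9.73. The labels call them biological replicates without saying which cultures they came from, so p-values measure the spread between these libraries. Of 8 epithelial markers, 7 were counted, VIL1 with at most 2 counts per library, and CDX1 was at 0. Their summed level in CPM, the count scaled to library size, ran from 3483.1 to 3865.2 in untreated and 2655.5 to 3135.8 in treated parental cells and from 3415.4 to 4218.3 in untreated and 3318.6 to 3804.4 in treated SDS22-degron cells. KRT8, KRT18 and KRT19 made up most of this sum, which hides single markers. Of 6 tested markers, 2 were called higher and 2 lower with Dox/IAA in SDS22-degron cells, where 51.5% of all tested genes were called. In parental cells 1 was called higher and 2 lower, against 31.6%. Mean CDH1 went from 94.5 to 189 CPM in SDS22-degron cells and mean KRT8 from 1635 to 1296 CPM. In parental cells mean CDH1 went from 88.2 to 113 CPM and mean KRT8 from 1595 to 1214 CPM. Of 8 fibroblast markers 3 were counted, with COL1A2, DCN, LUM, PDGFRA and THY1 at 0, and their sum, which was nearly all COL1A1, moved with Dox/IAA, from 9.96 to 13.9 CPM up to 17.3 to 22.9 CPM in parental cells and from 13.8 to 15.8 CPM up to 21.3 to 31.7 CPM in SDS22-degron cells. COL1A1 is also on the list of TGF-beta targets below, and COL3A1 and PDGFRB had at most 4 and 3 counts per library. Endothelial markers, mainly VWF, summed to 1.32 to 1.89 CPM in treated SDS22-degron libraries and to at most 1.06 CPM in the others, with CDH5 at 0, and blood cell markers to at most 0.158 CPM. Whether these levels bear on the 9 genes was not tested. PPP1R7 mRNA, with group means from 43.7 to 47.9 CPM, was not called in any comparison; the degron acts on the protein, so the mRNA does not check its loss. As RNA was taken from whole cultures, a change in the cells that make a transcript and a change in RNA per cell cannot be told apart.

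Transcript levels followed different patterns. ID1, ID3, SMAD6 and BMPR2 rose with Dox/IAA in SDS22-degron cells, and the effect differed from that in parental cells, where BMPR2 rose, SMAD6 fell and ID1 and ID3 were not called. ID2 and SMAD9 rose with Dox/IAA in both lines. In BMP4, SMAD7, SMAD6 and ID2 every SDS22-degron library was above every parental library, with and without Dox/IAA. Adjusted p-values below come from the quasi-likelihood test of edgeR with Benjamini-Hochberg adjustment over all 16657 tested genes, and a gene is called at an adjusted p under 0.05.

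The genes were chosen with earlier results of these data known, so comparing their counts with those of all genes is descriptive only. With Dox/IAA, 8 of the 8 tested genes were higher in SDS22-degron than in parental cells and 0 were lower, against 44.9% of all tested genes called, 21.8% higher and 23.1% lower. Without treatment, 5 were higher and 2 (ID1 and ID3) lower, where 28.2% of all tested genes were called, 13.2% higher and 15% lower. Within SDS22-degron cells, Dox/IAA raised 7 and lowered 1 (BMP4), against a background of 51.5%, with 26% higher and 25.5% lower. Within parental cells it raised 3 and lowered 1 (SMAD6), or 4 and 2 with the replicate number as a block, against 31.6%, with 15.9% higher and 15.7% lower. The interaction, which is the Dox/IAA effect in SDS22-degron cells minus that in parental cells, was called higher for 4 and lower for 0, against 14.4% of all tested genes, 6.03% higher and 8.35% lower. The libraries of the 2 groups compared did not overlap for 8, 8, 8 and 4 of the 8 genes between the treated lines, between the untreated lines, with Dox/IAA in SDS22-degron and with Dox/IAA in parental cells, where they did not overlap for 52.9%, 43.5%, 59.9% and 41.3% of all tested genes.

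The median log2 fold change of the 8 genes was 0.86 between the treated lines, 0.67 between the untreated lines, 0.78 for Dox/IAA in SDS22-degron cells, 0.18 for Dox/IAA in parental cells and 0.42 in the interaction. The medians of all tested genes in these comparisons lay between -0.01 and 0.00. The comparisons share groups of libraries and are therefore not independent of each other. The cut-off of the study for differentially expressed genes (DEGs) was an unadjusted p under 0.05 with a log2 fold change beyond 1. It was applied here in either direction to p-values of the quasi-likelihood test, whereas the study used the likelihood ratio test. By it, SMAD6, SMAD7 and BMP4 passed between the treated lines and ID2, SMAD7 and BMP4 between the untreated lines, where 6.63% and 4.14% of tested genes did. None passed it for Dox/IAA in SDS22-degron cells (7.83% of tested genes), for Dox/IAA in parental cells (3.14%) or in the interaction (3.6%). By adjusted p, 8, 4 and 4 of the 8 were called there.

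**Figure D1:**
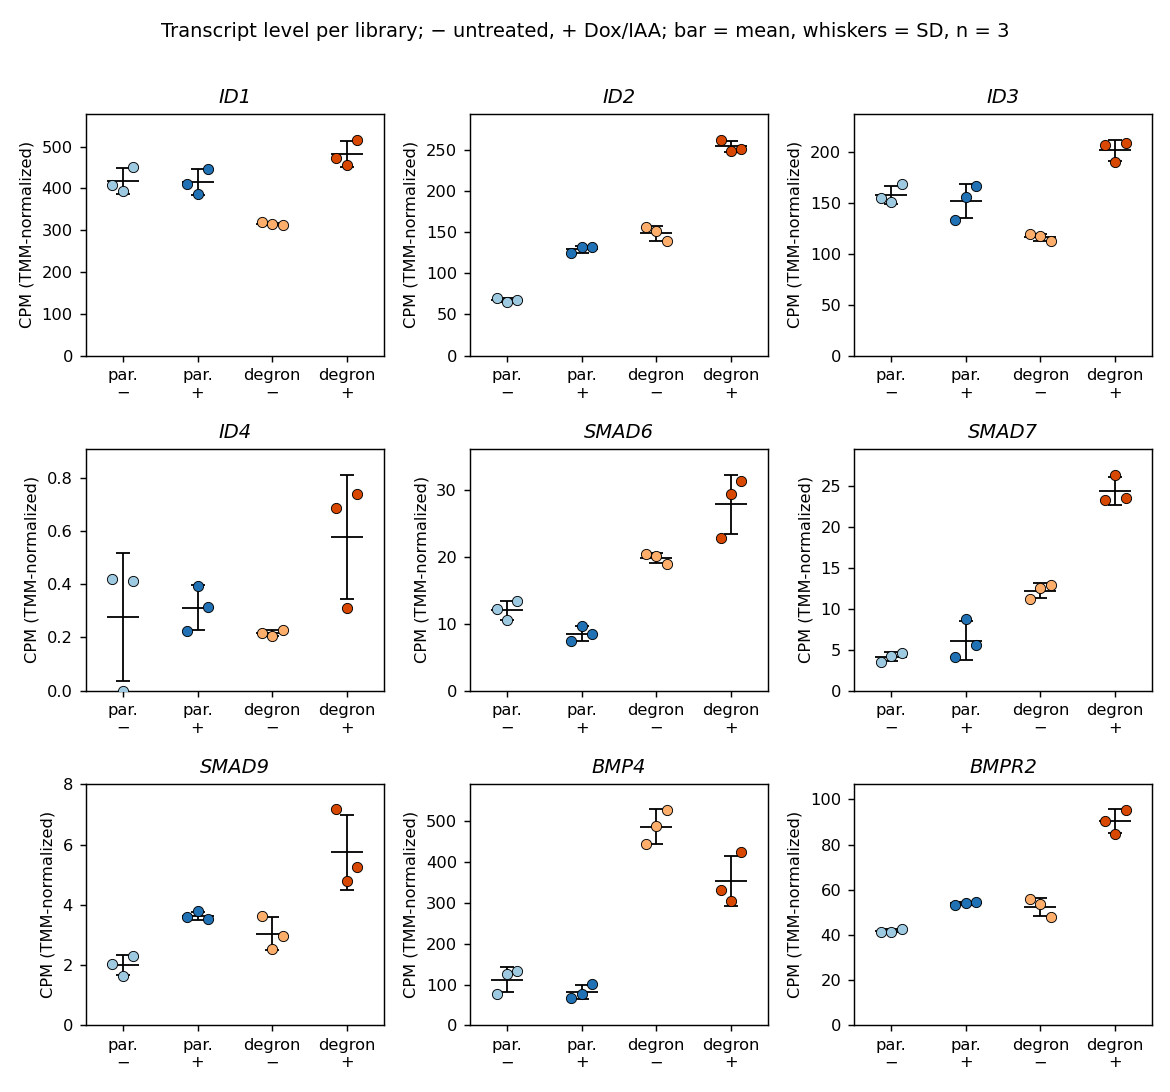
CPM (TMM-normalized, linear axes from 0) of each of the 9 genes in the 12 libraries, in parental (par.) and SDS22-degron (degron) cells, untreated (−) or with Dox/IAA (+); points are libraries, bars the mean and whiskers the SD of 3 libraries. ID1 and ID3 are lowest in untreated SDS22-degron cells and highest in the treated ones, and BMP4 is above 300 CPM in every SDS22-degron library and below 140 CPM in every parental library.

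BMP4 encodes a secreted BMP-branch ligand. Its level was 76.3, 127.1 and 132.7 CPM in untreated parental cells and 68.2, 77.7 and 100.9 CPM with Dox/IAA. In SDS22-degron cells it was 444.9, 488.2 and 528.5 CPM untreated and 332.6, 305.5 and 424.0 CPM with Dox/IAA. Every SDS22-degron library was above every parental library. The line difference was 4.35-fold without treatment (log2 fold change 2.12, SE 0.17, adjusted p = 6.61e-08) and 4.31-fold with Dox/IAA (log2 fold change 2.11, SE 0.17, adjusted p = 3.00e-08).

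With Dox/IAA, BMP4 fell by 0.46 on the log2 scale in SDS22-degron cells (SE 0.16, adjusted p = 0.0226), and the treated libraries lay below the untreated ones without overlap. In parental cells the log2 fold change was -0.45 (SE 0.17, adjusted p = 0.0531) and the libraries overlapped. It was called with the replicate number as a block (-0.44, adjusted p = 0.00401), and the treated library was the lower one in every pair of 1 number. The interaction was -0.01 (95% confidence interval -0.51 to 0.48, adjusted p = 0.978), an interval that holds shifts of either sign. The call in SDS22-degron cells was lost with DESeq2 (adjusted p = 0.0996), with full-quantile normalization in GC bins (-0.27, adjusted p = 0.153) and without any one of untreated replicates 2 and 3 or Dox/IAA replicates 1 and 2, with adjusted p-values from 0.0513 to 0.102. The parental fold change was called without untreated replicate 1 (-0.67, adjusted p = 0.00232) or Dox/IAA replicate 3 (-0.62, adjusted p = 0.0187).

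BMPR2 encodes the type II BMP receptor. It was at 41.4, 41.5 and 42.5 CPM in untreated parental cells and at 53.4, 54.4 and 54.5 CPM with Dox/IAA, a rise of 1.29-fold (log2 fold change 0.37, SE 0.07, adjusted p = 0.000853). In SDS22-degron cells the levels were 55.8, 53.6 and 48.1 CPM untreated and 90.3, 84.9 and 95.5 CPM with Dox/IAA, a rise of 1.72-fold (log2 fold change 0.78, SE 0.07, adjusted p = 5.85e-08). The treated SDS22-degron libraries were above all 9 others. The rise differed between the lines by 0.41 on the log2 scale (SE 0.10, adjusted p = 0.0108). BMPR2 was 1.26-fold higher in SDS22-degron than in parental cells before treatment (adjusted p = 0.00219) and 1.67-fold higher with Dox/IAA (adjusted p = 1.66e-07).

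SMAD9, also named SMAD8, is a receptor-regulated SMAD of the BMP branch. It was a low transcript, with 21 to 94 counts per library. Its level was 2.03, 1.64 and 2.31 CPM in untreated parental cells, 3.599, 3.79 and 3.54 CPM in treated parental cells, 3.65, 2.54 and 2.96 CPM in untreated SDS22-degron cells and 7.17, 4.80 and 5.27 CPM in treated SDS22-degron cells. Dox/IAA raised it in parental cells (log2 fold change 0.87, SE 0.22, adjusted p = 0.00639) and in SDS22-degron cells (0.92, SE 0.19, adjusted p = 0.000511), without overlap in either line. The interaction was 0.05, with a 95% confidence interval from -0.60 to 0.69 (adjusted p = 0.943).

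Between the treated lines SMAD9 was higher in SDS22-degron cells (log2 fold change 0.66, SE 0.19, adjusted p = 0.00727), a call that was lost without SDS22-degron Dox/IAA replicate 1 (0.47, adjusted p = 0.0577). Between the untreated lines the log2 fold change was 0.61 (SE 0.23, adjusted p = 0.0532), and it was called without SDS22-degron untreated replicate 2 (0.73, adjusted p = 0.0444) and with 7 other settings.

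SMAD6 encodes an inhibitory SMAD that acts mainly on BMP signals. It was at 12.2, 10.6 and 13.3 CPM in untreated parental cells and at 7.42, 9.64 and 8.50 CPM with Dox/IAA. In SDS22-degron cells it was at 20.4, 20.2 and 18.98 CPM untreated and at 22.9, 29.3 and 31.4 CPM with Dox/IAA. None of the 4 groups overlapped another, and Dox/IAA moved SMAD6 down in parental and up in SDS22-degron cells.

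The log2 fold change of SMAD6 with Dox/IAA was -0.50 in parental cells (SE 0.14, adjusted p = 0.0127) and 0.49 in SDS22-degron cells (SE 0.12, adjusted p = 0.00196). The interaction was 0.98 (SE 0.18, adjusted p = 0.00153), the largest estimate among the 8 genes. The parental fall was not called without untreated replicate 3 (-0.42, adjusted p = 0.0597) or without Dox/IAA replicate 1 (-0.40, adjusted p = 0.0695), whereas the interaction was called without any single library. SMAD6 was 1.65-fold higher in SDS22-degron than in parental cells before treatment (adjusted p = 0.000349) and 3.27-fold higher with Dox/IAA (adjusted p = 1.55e-08).

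SMAD7 encodes the inhibitory SMAD that acts on both branches. Its levels were 3.55, 4.22 and 4.61 CPM in untreated and 4.05, 8.77 and 5.51 CPM in treated parental cells, and 11.2, 12.5 and 12.9 CPM in untreated and 23.3, 26.4 and 23.6 CPM in treated SDS22-degron cells. Each SDS22-degron library was above each parental library, by 2.95-fold untreated (log2 fold change 1.56, SE 0.20, adjusted p = 1.16e-05) and 4.01-fold with Dox/IAA (2.00, SE 0.17, adjusted p = 5.47e-08). Dox/IAA raised SMAD7 in SDS22-degron cells 2.00-fold (log2 fold change 1.00, SE 0.16, adjusted p = 3.16e-05).

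In parental cells the SMAD7 libraries with and without Dox/IAA overlapped, with a log2 fold change of 0.56 (SE 0.22, adjusted p = 0.0593), which was called with the block (0.55, adjusted p = 0.0292). It was called in 7 of 17 alternatives, among them the likelihood ratio test, DESeq2, library size only and no low-count filter. Dox/IAA replicate 2 of the parental cells was the highest parental library, and without it this fold change was 0.21 (adjusted p = 0.425), while without Dox/IAA replicate 1 it was 0.79 (adjusted p = 0.00643). The interaction of 0.44 had a 95% confidence interval from -0.13 to 1.01 (adjusted p = 0.303). It was 0.81 (adjusted p = 0.0199) without parental Dox/IAA replicate 2 and 0.19 (adjusted p = 0.650) without parental Dox/IAA replicate 1, so that 1 library decided whether the Dox/IAA effect on SMAD7 was called different between the lines.

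ID1 is a classical BMP target. Its transcript was at 407.9, 392.6 and 452.0 CPM in untreated and at 410.9, 386.1 and 447.4 CPM in treated parental cells, a log2 fold change of -0.01 with a 95% confidence interval from -0.16 to 0.14 (adjusted p = 0.937). In SDS22-degron cells it was at 318.6, 314.3 and 312.8 CPM untreated and at 471.6, 456.8 and 516.4 CPM with Dox/IAA, a rise of 1.53-fold (log2 fold change 0.61, SE 0.07, adjusted p = 1.44e-06). The Dox/IAA effect differed between the lines by 0.62 (SE 0.10, adjusted p = 0.000523).

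The order of the lines was opposite for ID1 with and without treatment. Untreated SDS22-degron cells held less ID1 than parental cells (log2 fold change -0.41, SE 0.07, adjusted p = 0.000376), and treated SDS22-degron cells held more (0.22, SE 0.07, adjusted p = 0.0205). The difference between the treated lines was a small one, 1.16-fold, and it was not called without parental Dox/IAA replicate 1 (0.20, adjusted p = 0.0586), parental Dox/IAA replicate 2 (0.18, adjusted p = 0.0604) or SDS22-degron Dox/IAA replicate 3 (0.16, adjusted p = 0.108). The summed epithelial markers also differed between the treated lines (values above), and their part in the ID1 difference was not tested.

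ID3 moved in the same directions as ID1 in SDS22-degron cells. Its levels were 155.2, 151.1 and 168.4 CPM in untreated and 133.8, 156.2 and 166.5 CPM in treated parental cells, which overlapped (log2 fold change -0.06, SE 0.08, adjusted p = 0.610). They were 119.2, 117.6 and 112.7 CPM in untreated and 206.8, 190.1 and 209.1 CPM in treated SDS22-degron cells, a rise of 1.73-fold (log2 fold change 0.79, SE 0.08, adjusted p = 1.30e-07). The interaction was 0.85 (SE 0.11, adjusted p = 6.25e-05). Untreated SDS22-degron cells held less ID3 than untreated parental cells (log2 fold change -0.44, SE 0.08, adjusted p = 0.000296), and treated ones held more than treated parental cells (0.41, SE 0.08, adjusted p = 0.000247).

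ID2 followed neither ID1 nor ID3. It was at 69.6, 65.0 and 67.1 CPM in untreated and 124.4, 132.4 and 131.3 CPM in treated parental cells, and at 156.6, 150.8 and 138.8 CPM in untreated and 262.1, 248.8 and 250.9 CPM in treated SDS22-degron cells. The 4 groups did not overlap. Dox/IAA raised ID2 1.92-fold in parental cells (log2 fold change 0.94, SE 0.07, adjusted p = 2.44e-08) and 1.71-fold in SDS22-degron cells (0.77, SE 0.06, adjusted p = 1.72e-08), and the interaction was -0.17 (95% confidence interval -0.36 to 0.02, adjusted p = 0.213).

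The line difference of ID2 was 2.21-fold in favour of SDS22-degron cells before treatment (log2 fold change 1.15, SE 0.06, adjusted p = 5.63e-10) and 1.96-fold with Dox/IAA (0.97, SE 0.06, adjusted p = 2.48e-09). ID2 overlaps the antisense gene ID2-AS1, which had 85 counts over all 12 libraries against at least 814 for ID2 in every library. The kit marks strand, but the strand setting of the counting was not given in the sources used here.

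ID4 was at the limit of detection. It had 5, 0 and 5 counts in untreated parental libraries, 3, 5 and 4 in treated parental, 3, 3 and 3 in untreated SDS22-degron and 9, 4 and 9 in treated SDS22-degron libraries. The count of 0 allows a level of up to 0.235 CPM in that library. No fold change is given, since the levels were too low to compare at this depth. ID4 overlaps an antisense gene, RP4-625H18.2, with 37 counts in all.

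**Figure D2:**
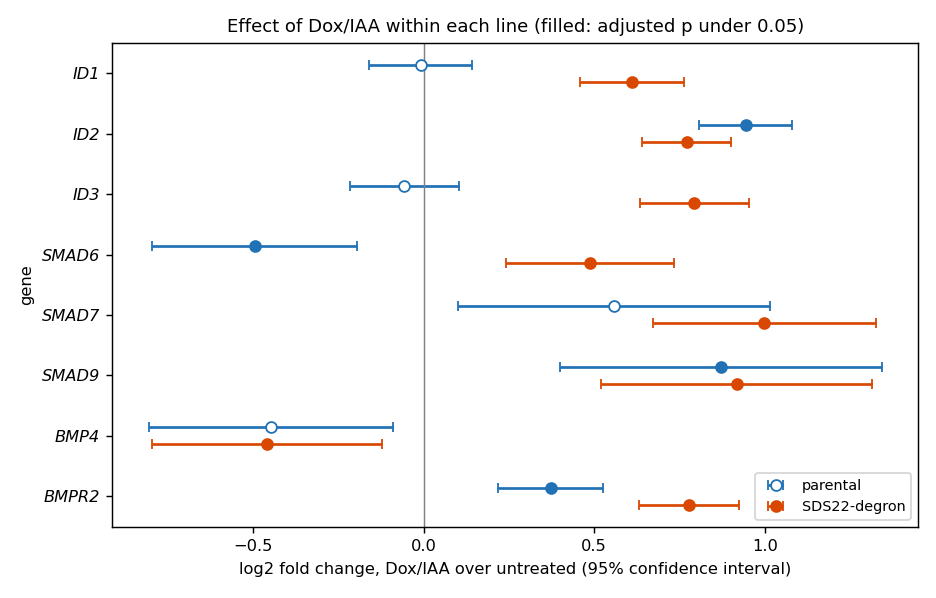
Log2 fold change of Dox/IAA over untreated cells (x axis, with 95% confidence intervals) for the 8 tested genes, in parental (blue) and SDS22-degron cells (orange); filled points have an adjusted p under 0.05. ID1 and ID3 lie at -0.01 and -0.06 in parental cells and at 0.61 and 0.79 in SDS22-degron cells, and SMAD6 lies on opposite sides of 0 in the 2 lines.

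**Figure D3:**
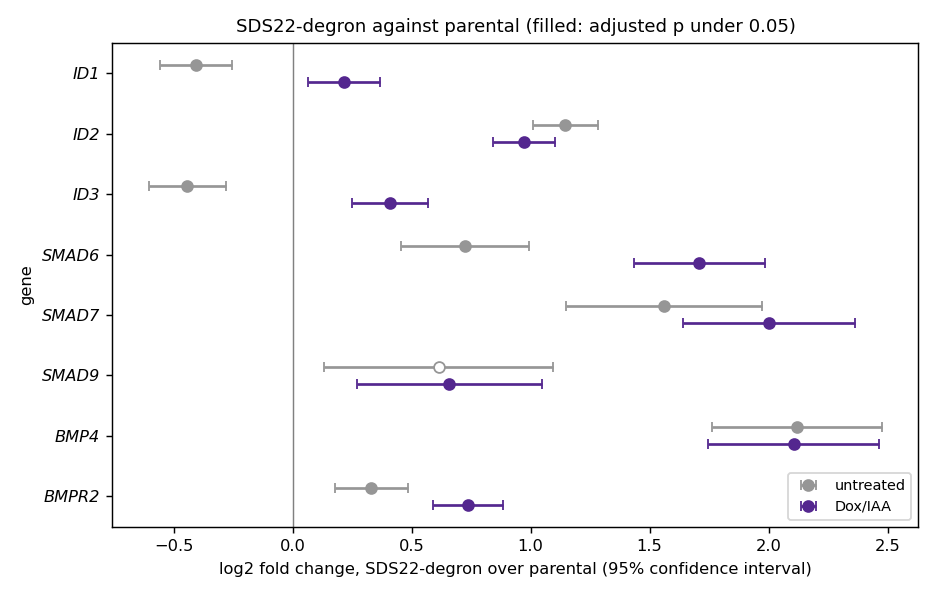
Log2 fold change of SDS22-degron over parental cells (x axis, with 95% confidence intervals) for the 8 tested genes, untreated (grey) or with Dox/IAA (purple); filled points have an adjusted p under 0.05. BMP4 and SMAD7 are furthest to the right, at 2.12 and 1.56 without treatment, and ID1 and ID3 change sides, from -0.41 and -0.44 untreated to 0.22 and 0.41 with Dox/IAA.

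Levels of different genes were compared per length of the deposited gene models, as RPKM, which is CPM per kilobase. ID1 was the highest of the 9 in every group, with a mean from 255.7 RPKM in untreated SDS22-degron to 390.6 RPKM in treated SDS22-degron cells. In untreated parental cells ID3 followed at 88.1 RPKM ± 5.03 (SD, n = 3), then BMP4 at 36.3 ± 10.1 and ID2 at 30.5 ± 1.06 RPKM (SD, n = 3), whose libraries overlapped. In untreated SDS22-degron cells BMP4 was second to ID1 at 158.1 RPKM ± 13.6 (SD, n = 3), above ID2 at 67.4 and ID3 at 64.8 RPKM, which overlapped each other. In treated SDS22-degron cells ID2, BMP4 and ID3 lay at 115.2, 114.9 and 112.4 RPKM, each overlapping the next.

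BMPR2 came after ID1, ID2, ID3 and BMP4 in every group, from 3.51 to 7.58 RPKM, and SMAD6, SMAD7 and SMAD9 followed. SMAD6 and SMAD7 overlapped in untreated and in treated parental cells, while SMAD7 was above SMAD6 without overlap in SDS22-degron cells, at 3.31 against 2.32 RPKM untreated and 6.61 against 3.25 RPKM with Dox/IAA. BMPR2 and SMAD7 overlapped in treated SDS22-degron cells. SMAD9 was at 0.348 to 1.00 RPKM and ID4, the lowest, at 0.0928 to 0.247 RPKM.

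Over the 12 libraries, log2 CPM of ID1 and ID3 had a Pearson correlation of 0.95, ID2 and BMPR2 of 0.93, SMAD9 and BMPR2 of 0.91, ID2 and SMAD9 of 0.91, ID2 and SMAD7 of 0.91, SMAD6 and SMAD7 of 0.88 and SMAD6 and BMP4 of 0.87. ID1 and BMP4 had -0.29, the lowest among the 8 genes. These coefficients describe the profiles over 4 groups of 3 libraries, and all genes share the same libraries and their depth. The tested genes with the highest correlation to ID1 were WWC3 (0.97), CTNND1 (0.97), which encodes p120-catenin, and HOXA7 (0.96). Genes named here for correlation were picked over the same libraries, so calls shared with ID1, SMAD6 or BMP4 follow from the choice. All 3 were called lower in SDS22-degron than in parental cells before treatment and higher with Dox/IAA in SDS22-degron cells. They were also called in the interaction, with 0.88, 0.35 and 0.61 (adjusted p = 0.00666, 0.0159 and 0.000845). Calls lost without 1 library were that of CTNND1 in the interaction without SDS22-degron Dox/IAA replicate 3 and that of WWC3 between the untreated lines without parental untreated replicate 3 (adjusted p up to 0.0564 and 0.0581). For SMAD6 the nearest genes were SLC12A9 (0.98), PTPRU (0.98) and ZFYVE21 (0.97), and PTPRU had an interaction of 0.45 (adjusted p = 0.00635), with SLC12A9 at 0.26 (adjusted p = 0.0830) and ZFYVE21 at 0.26 (adjusted p = 0.111). For BMP4, TLE1P1 (0.98) and KRTAP2-3 (0.98) were among the nearest genes.

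The rest of the pathway was read from lists of its ligands, receptors, regulators and known target transcripts, and their counts in the interaction stand beside the 14.4% of all tested genes called there. The lists too were chosen with earlier results of these data known, so their counts are descriptive only. Of 13 BMP-branch ligands besides BMP4, 4 were measured well enough to test, and in the interaction 0 of them were called, with a median of 0.20 on the log2 scale against 0.00 over all tested genes. The smallest unadjusted p-values belonged to BMP8B (0.32, adjusted p = 0.200) and BMP6 (-0.69, adjusted p = 0.235). BMP6, with 14 to 46 counts per library, was higher in SDS22-degron than in parental cells before treatment (log2 fold change 1.06, SE 0.27, adjusted p = 0.00632). It was then at 3.12 CPM ± 0.340 against 1.48 CPM ± 0.545 (SD, n = 3). With Dox/IAA it was at 2.73 CPM ± 0.825 against 2.12 CPM ± 0.267, and the libraries overlapped. Mean BMP7, named after its values were seen, was 21.6 CPM against 14.1 CPM untreated and 26.0 CPM against 15.1 CPM with Dox/IAA. Of the 4 tested ligands, 2 were called higher in SDS22-degron cells untreated and 1 with Dox/IAA, against 13.2% and 21.8% of all tested genes.

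Of 16 TGF-beta and activin-branch ligands, 5 were tested, and the interaction was called higher for TGFB3 (1.54, SE 0.49, adjusted p = 0.0406) and lower for GDF11 (-0.85, SE 0.20, adjusted p = 0.00720), around a list median of -0.05. The TGFB3 call was kept without parental untreated replicate 1, parental Dox/IAA replicate 2, SDS22-degron untreated replicate 3 or SDS22-degron Dox/IAA replicate 2 and lost without any of the other 8 libraries, with adjusted p-values up to 0.104. TGFB3 was low, with 20 to 31 counts in treated SDS22-degron libraries and 8 to 19 counts in all others. TGFB2 and INHBB, which encodes an activin subunit, were called higher in SDS22-degron cells with and without Dox/IAA. TGFB2 had 18 to 50 counts per SDS22-degron library and 1 to 7 per parental library, and INHBB had 15 to 41 against 0 to 7.

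Of 11 type I and II receptors, 9 were tested and 1 was called in the interaction, no larger a share than over all genes: TGFBR2 (0.72, SE 0.16, adjusted p = 0.00567), with a list median of 0.19. Its level was 69.2 CPM ± 6.11 in untreated and 77.7 CPM ± 9.93 in treated parental cells, and 35.6 CPM ± 1.99 in untreated and 65.9 CPM ± 11.7 in treated SDS22-degron cells (SD, n = 3). Dox/IAA thus raised this transcript in SDS22-degron cells (log2 fold change 0.89, adjusted p = 4.84e-06) from a lower starting level (untreated lines -0.96, adjusted p = 8.23e-06). ACVR2A, a type II activin and BMP receptor, rose in both lines, by 0.54 in SDS22-degron (adjusted p = 5.15e-05) and 0.27 in parental cells (adjusted p = 0.0331), with an interaction of 0.27 (adjusted p = 0.164). The parental rise of ACVR2A was not called by DESeq2, without the low-count filter, with either GC correction, with the compared groups alone or without any one of untreated replicates 1 and 2 and Dox/IAA replicates 1 and 3, with adjusted p-values up to 0.145. ACVR1C, a type I receptor, was higher in SDS22-degron cells with Dox/IAA (1.46, adjusted p = 3.77e-06) and without it (1.49, adjusted p = 1.94e-05). Of 7 co-receptors 3 were tested and 0 were called in the interaction, where RGMB had 0.32 (adjusted p = 0.162) and RGMA -0.37 (adjusted p = 0.331), with a median of -0.14.

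Of the 5 receptor-regulated SMADs and SMAD4 on the list, which leaves out SMAD9, 0 were called in the interaction, where their median was 0.06. SMAD1, of the BMP branch, was lower in SDS22-degron than in parental cells before treatment (log2 fold change -0.60, SE 0.10, adjusted p = 0.000175) and rose with Dox/IAA in SDS22-degron cells (0.31, SE 0.10, adjusted p = 0.0149), with an interaction of 0.39 (adjusted p = 0.0671). The rise of SMAD1 was lost without untreated replicate 2 or Dox/IAA replicates 1 or 2 of the SDS22-degron cells (adjusted p up to 0.0842), and its interaction was called without SDS22-degron untreated replicate 1 (0.47) or Dox/IAA replicate 3 (0.45), with the block for replicates (0.40, adjusted p = 0.0383) and with a GC correction per library (0.40, adjusted p = 0.0498). SMAD3, of the TGF-beta branch, rose with Dox/IAA in SDS22-degron cells (0.76, adjusted p = 1.07e-06) and in parental cells (0.49, adjusted p = 0.000352). It was lower in SDS22-degron than in parental cells both untreated (-0.66, adjusted p = 2.16e-05) and with Dox/IAA (-0.39, adjusted p = 0.00121).

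Among the secreted antagonists and modulators, 9 of 19 were tested and 1 was called in the interaction, again no larger a share than over all genes: LTBP3 (0.75, SE 0.15, adjusted p = 0.00216), whose product binds latent TGF-beta; the median of the list was -0.10. It was at 494 CPM ± 44.7 in treated SDS22-degron cells and between 263 and 302 CPM on average in the other 3 groups (SD, n = 3). LTBP2 had an interaction of -0.59 (adjusted p = 0.142). NOG, a BMP antagonist, was called higher in SDS22-degron cells with and without Dox/IAA, with 9 to 19 counts per SDS22-degron library and 1 to 8 per parental library. The call between the untreated lines was lost with DESeq2 and without parental untreated replicates 1 or 2 or SDS22-degron untreated replicate 1 (adjusted p up to 0.114). Of 15 intracellular regulators, all of them tested, 2 were called in the interaction, a share near the 14.4% of all genes: SKIL (0.82, SE 0.20, adjusted p = 0.0103) and TGIF1 (0.38, SE 0.11, adjusted p = 0.0223), both repressors of SMAD-dependent transcription, and the list median was 0.12. The TGIF1 call was lost without parental untreated replicate 1, SDS22-degron untreated replicate 3 or SDS22-degron Dox/IAA replicate 3 (adjusted p up to 0.0698). PMEPA1, a TGF-beta-induced inhibitor of SMAD signalling, had 40 to 67 counts in SDS22-degron and 1 to 11 counts in parental libraries and was called higher in the former with and without Dox/IAA.

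Of 12 transcripts known to rise with TGF-beta, 11 were tested and 3 were called in the interaction, namely CDKN1A (0.65, SE 0.12, adjusted p = 0.00110), SKIL and TSC22D1 (0.37, SE 0.12, adjusted p = 0.0437), the last of which was named after its value was seen, and the list median was 0.37. The TSC22D1 call was kept without parental Dox/IAA replicate 3 or SDS22-degron Dox/IAA replicate 1 and lost without any of the other 10 libraries and by library size only (adjusted p up to 0.120). CDKN1A encodes the cell-cycle inhibitor p21, which also responds to p53; it was at 263 CPM in untreated and 273 CPM in treated parental cells, and at 504 and 824 CPM in SDS22-degron cells. TSC22D1 fell with Dox/IAA in parental cells (-0.48, adjusted p = 0.000354) and was at -0.11 in SDS22-degron cells (adjusted p = 0.304), or at 0.12 there with GC bins. CTGF (1.02, adjusted p = 0.000550) and FN1 (1.03, adjusted p = 2.41e-06) were higher between the treated lines. Of the whole list, 6 were called higher and 1 lower there, against 21.8% and 23.1% of all tested genes.

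Of 9 further transcripts known to rise with BMP, 6 were tested, and 6 were higher in SDS22-degron than in parental cells with Dox/IAA (21.8% of all tested genes), 4 were higher without it (13.2%) and 1 was called in the interaction (14.4%). The list had a median of 1.39 for the treated lines compared and of 0.52 for the interaction. The gene called in the interaction was ATOH8, a basic helix-loop-helix factor, with 1.08 (SE 0.29, adjusted p = 0.0181), a call that was lost without replicate 3 of the untreated parental or of the untreated SDS22-degron cells (adjusted p up to 0.0547). It was at 3.04, 3.75 and 3.87 CPM in untreated and 8.92, 6.32 and 10.6 CPM in treated parental cells, and at 5.39, 4.13 and 3.26 CPM in untreated and 23.03, 18.4 and 24.4 CPM in treated SDS22-degron cells, so it rose with Dox/IAA in both lines and further in SDS22-degron cells. RUNX2, a transcription factor of bone formation, was at 35.9 CPM ± 3.67 in untreated SDS22-degron and 3.88 CPM ± 0.601 in untreated parental cells (SD, n = 3), with a log2 fold change of 3.21 without and 3.84 with Dox/IAA (adjusted p = 8.85e-12 and 2.81e-12). MSX2, a homeobox factor, was likewise higher in SDS22-degron cells without (1.03, adjusted p = 8.95e-06) and with Dox/IAA (1.43, adjusted p = 5.19e-08).

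The E proteins, the partners that ID proteins bind, are encoded by TCF3, TCF4 and TCF12. TCF12 was called in the interaction (0.32, SE 0.09, adjusted p = 0.0265), as it fell with Dox/IAA in parental cells (-0.28, adjusted p = 0.00363) and was at 0.05 in SDS22-degron cells (adjusted p = 0.591). The call was kept without parental untreated replicate 2, parental Dox/IAA replicates 1 or 3, SDS22-degron untreated replicate 1 or SDS22-degron Dox/IAA replicate 2 and lost without any of the other 7 libraries (adjusted p up to 0.0741). TCF3 fell in both lines, by 0.36 in SDS22-degron (adjusted p = 0.000252) and 0.21 in parental cells (adjusted p = 0.0302) on the log2 scale, and the parental fall was not called by library size only, with the compared groups alone or without untreated replicates 2 or 3 or Dox/IAA replicates 1 or 2 (adjusted p up to 0.111). TCF4 had 0 to 2 counts per library and was not tested.

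**Figure D4:**
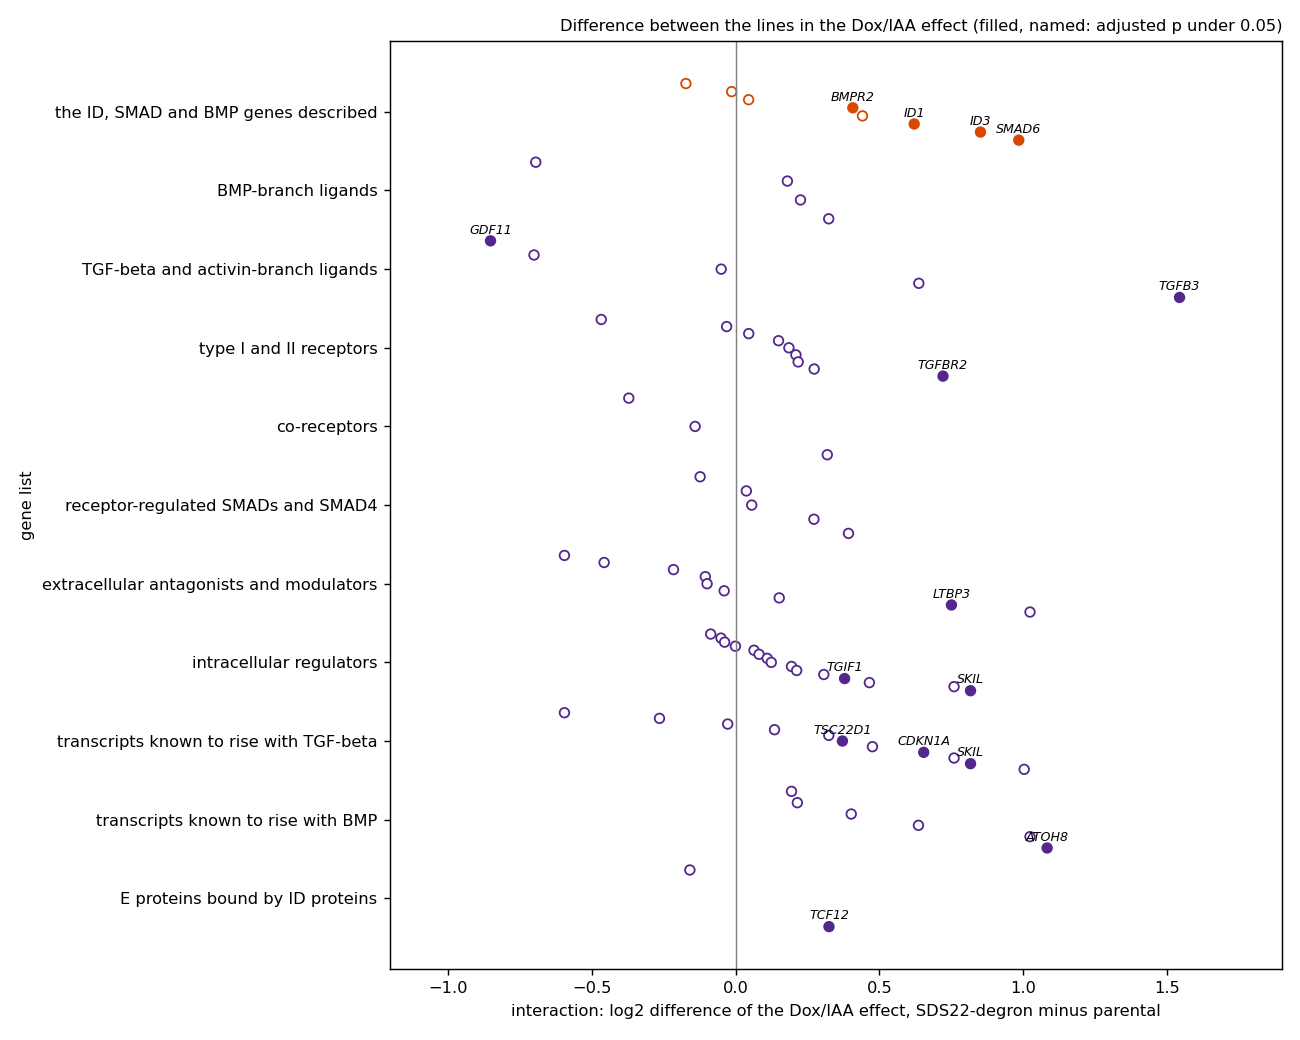
Interaction (x axis, log2 difference of the Dox/IAA effect, SDS22-degron minus parental) of each tested gene, with 1 row for the genes described here (orange) and 1 for each list of other pathway genes (purple); filled and named points have an adjusted p under 0.05. ID1, ID3, SMAD6 and BMPR2 lie between 0.41 and 0.98, and of the named list genes GDF11 lies at -0.85 and the others lie above 0, with TGFB3 at 1.54.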

How the data were processed

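Poly-A RNA of 12 samples went into stranded libraries, read from 1 end. The values the authors deposited are read counts of each gene without scaling, beside gene length and GC content in percent, both given by the authors. The submitters' processing notes name cutadapt 1.15, Bowtie2 2.3.3.1, STAR 2.5.2b, SAMtools 1.5, featureCounts 1.5.3 and GRCh38, and the annotation release and strand setting were not given in the sources used here. The deposited positions of all 9 genes overlapped their RefSeq positions on GRCh38.p14. Genes were filtered with filterByExpr (minimum count 10), scaled with TMM and fitted with 4 group means in edgeR 4.0.16 (R 4.3.3). Comparisons used the two-sided quasi-likelihood F test with Benjamini-Hochberg adjustment over 16657 genes. CPM and RPKM were computed from the deposited counts. The study used the likelihood ratio test, which was run as an alternative, as were DESeq2 1.42.0, other scalings and filters, GC corrections, the replicate number as a block, the compared groups alone and each library left out. Libraries of 1 number correlated in their deviations from the group means at 0.124, 0.246 and 0.131 between untreated and treated parental cells. Between the treated lines the values were 0.101, 0.133 and 0.138. The numbers may thus pair the samples there, though these correlations are weak. In the other comparisons between 2 groups not every pair was over 0.1. Over all groups 7 of 18 pairs were. On average, 12 of 12 libraries correlated best with libraries of their own number. The median was 0.0946 for pairs of 1 number and -0.0349 for the other pairs. The main fit did not use the numbers. The labels give the numbers without saying that they mark a batch. The procedure was run on simulated counts with 200 genes changed in the treated SDS22-degron group and no shared replicate effect. Far more genes were called in the real data, so the simulation does not check error rates here. Correlations used log2 CPM (prior count 2). At this depth the SE of log2 fold changes had a median of 0.110 in 2-group comparisons and of 0.156 for interactions, which covers counting error and the spread between libraries; the limit for a count of 0 (3 counts) covers counting error only. The genes and lists were chosen with earlier results of these data known. All 9 genes were named. Of each list, the tested genes with the smallest p in the interaction (up to 2) were named, with any called gene whose log2 fold change lay beyond 1 in either direction in the interaction or between the treated lines, and the 3 E proteins, PPP1R7 and the 3 genes most correlated with ID1, SMAD6 and BMP4. CTGF was matched through another symbol. Some genes stand on more than 1 list, and some named by this rule are not reported here.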

Additional observations from a re-analysis of the deposited data

Results flagged for a closer look

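The Dox/IAA effect differed between SDS22-degron and parental cells, by a test of the difference itself, for 4 of the 8 tested genes. The difference was 0.62 on the log2 scale for ID1 (adjusted p = 0.000523), 0.85 for ID3 (adjusted p = 6.25e-05), 0.98 for SMAD6 (adjusted p = 0.00153) and 0.41 for BMPR2 (adjusted p = 0.0108), by the quasi-likelihood test of edgeR. In every case the log2 fold change with Dox/IAA was higher in SDS22-degron than in parental cells. Among the other genes of the pathway named above, the difference was -0.85 for GDF11, 1.54 for TGFB3, 0.72 for TGFBR2, 0.75 for LTBP3, 0.82 for SKIL, 0.38 for TGIF1, 0.65 for CDKN1A, 1.08 for ATOH8, 0.32 for TCF12 and 0.37 for TSC22D1. Among the genes named for their correlation it was 0.88 for WWC3, 0.35 for CTNND1, 0.61 for HOXA7 and 0.45 for PTPRU. The calls of TGFB3, TGIF1, ATOH8, TCF12, TSC22D1 and CTNND1 were lost when single libraries were left out, as given above. WWC3, CTNND1, HOXA7 and PTPRU were picked for profiles like those of ID1 or SMAD6, so their differences are no separate result. The SDS22-degron cells derive from the parental ones through genome editing and growth of isolated colonies, so tagged SDS22, its loss with Dox/IAA and other differences between the lines cannot be told apart in these comparisons.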

How the results depend on the processing

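Of 288 values of the tested genes recomputed without 1 library, 261 kept their direction and their side of the threshold, 10 lost and 5 gained a call and 12 changed sign. Of 432 recomputed with another test, scaling, filter, GC correction or block, 407 kept both, 2 lost and 18 gained a call and 5 changed sign. The interactions of ID1, ID3, SMAD6 and BMPR2 were called in all 22 alternatives each, with ranges of 0.54 to 0.68, 0.75 to 0.95, 0.87 to 1.10 and 0.35 to 0.47. Changes of sign were seen only among values near 0. ID1 with Dox/IAA in parental cells was 0.0489 by library size only, 0.0135 by upper quartile and 0.0603 by GC bins, and -0.0676 to 0.05005 without 1 library. ID3 there was 0.00245 by library size only and -0.127 to 0.0309 without 1 library. The BMP4 interaction was 0.16 by GC bins and -0.18 to 0.19 without 1 library, and that of SMAD9 was -0.16 to 0.19 without 1 library. The cut-off of the study was applied to p-values of the quasi-likelihood test, not of the likelihood ratio test that the study used. By it, the counts of DEGs were 542 higher and 563 lower between the treated lines and 473 and 216 between the untreated lines. They were 636 and 669 with Dox/IAA in SDS22-degron cells, 391 and 132 in parental cells and 191 and 409 in the interaction. Of the 8 genes, 3 were then higher between the treated lines and 3 higher and 0 lower between the untreated lines, with 0 in the other comparisons. BMP4 was the 1 gene lower with Dox/IAA in SDS22-degron cells, and the count was 0 with DESeq2 and GC bins and 0 to 1 without 1 library. In parental cells 2 were lower (BMP4 joined SMAD6) with the likelihood ratio test, no filter, the replicate block and the GC correction with or without the block, and 0 to 2 without 1 library. With the GC correction and the replicate block, 1701 genes were higher in the interaction, against 1005. Scaling by library size only moved the share of higher calls with Dox/IAA in parental cells from 50.5% to 64.1%, and no scaling moved the median of all genes by over 0.06. Of the other named genes' values without 1 library, 746 kept both, 86 lost and 2 gained a call, and 1 value changed sign with another setting, that of TSC22D1 with Dox/IAA in SDS22-degron cells (0.12 by GC bins). DESeq2 gave no adjusted p for the TGFB3 interaction. The causes were not tested. The replicate block added calls for SMAD9 between the untreated lines (0.61, adjusted p = 0.0359), SMAD7 with Dox/IAA in parental cells (0.55, adjusted p = 0.0292) and BMP4 there (-0.44, adjusted p = 0.00401) and changed no other call of the 8 genes. Depth limits ID4 and, less so, SMAD9.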
